A study of Mus musculus with 7 samples.

Results

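The 33 genes described here encode aminoacyl-tRNA synthetases, and their promoters were examined in ChIP-seq data of mouse embryonic stem cells (ESCs). Members were taken by gene symbol from a list of 36, of which 33 were among the 17689 gene symbols of the files: 20 cytosolic enzymes and 13 mitochondrial ones, whose symbols end in 2. Cars2, Lars2 and Sars2 were not analysed here. The study asked where the histone acetyltransferase Tip60 and the deacetylase Hdac6 sit on chromatin, and what each knockdown (KD) does to the other factor and to p400, the remodeling subunit of the Tip60-p400 complex. All cells were of the E14 ESC line. Tip60-H3F and Hdac6-H3F cells, in which a histidine and Flag tag had been targeted to the endogenous gene (to 1 copy of it for Tip60), were used for ChIP with the Flag-M2 antibody. WT cells without a tag were put through the same ChIP, which gives the background of that antibody, and the p400 samples were made with an antibody against the endogenous protein. The title of the untagged sample names no knockdown, and no time after infection is given for it. Comparisons with it may therefore differ in treatment as well as in the tag. Tip60-H3F cells carried GFP KD, the control, or Hdac6 KD, and so did the cells used for p400, while Hdac6-H3F cells carried GFP KD or Tip60 KD, 72 hr after infection with lentivirus. For the last of these samples the title names Tip60 KD and the genotype label names Hdac6 KD. The title was followed, so that every statement on Tip60 KD is about the library titled so.

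Each of the 7 conditions was represented by 1 sample, so the spread between cultures is unknown and no p-value is given. Intervals in parentheses are 95% counting intervals (exact Poisson for a level, exact conditional binomial for a ratio) and cover the sampling of reads only. Depth ranged from 9226709 reads (Hdac6, Tip60 KD) to 31375600 reads (p400, Hdac6 KD) per sample, and the median member had between 12 and 42 reads within 500 bp of its transcription start site (TSS). Levels are given in rpm, the reads in that window per 1000000 reads of the sample. The files hold no RNA measurement, so the knockdowns and the identity of the cells could not be checked from them. Of the 33 TSSs, 32 lie within 115 bp of a start annotated for the gene in NCBIM37 (mm9), and the exception, Iars2, is described below.

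Aminoacyl-tRNA synthetases attach each amino acid to its tRNA, the step that sets the meaning of the genetic code. Most cells keep a cytosolic set and a separate nuclear-encoded set that is imported into mitochondria, although Gars and Kars each encode both forms and Eprs joins the glutamyl and prolyl enzymes in 1 polypeptide. Many cytosolic synthetase genes are known targets of Atf4, the transcription factor of the amino acid response, which binds a composite C/EBP-ATF element in their promoters.

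The C/EBP-ATF element (letters TGATGNAA, either strand, searched from 250 bases before to 50 bases after the TSS) was present in 8 members, Aars, Cars, Gars, Iars, Mars, Nars, Tars and Yars. All of these are cytosolic, which makes 8 of 20 cytosolic and 0 of 13 mitochondrial members, against 3.39% of all 17689 genes. The sites are shown because 7 of the 8 carriers were among the 1% of TSSs with the most Tip60 in control cells. Capitals mark the match or, where the match is on the opposite strand, its reverse complement. Each line reads 5′ to 3′ on the strand of the gene, with mm9 coordinates.
Aars, chr8:113557740-113557769, plus strand: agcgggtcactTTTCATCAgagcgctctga
Cars, chr7:150785950-150785979, minus strand: cggcgccgcggTTGCATCAgattctggaag
Gars, chr6:54987954-54987983, plus strand: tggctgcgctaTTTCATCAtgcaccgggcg
Iars, chr13:49777495-49777524, plus strand: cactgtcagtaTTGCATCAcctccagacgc
Mars, chr10:126748694-126748723, minus strand: gccggttccgaTTGCATCAgcgtgggctcc
Tars, chr15:11329410-11329439, minus strand: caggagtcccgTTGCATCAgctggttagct
Yars, chr4:128867139-128867168, plus strand: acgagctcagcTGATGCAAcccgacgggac
The matches of Cars, Gars, Iars, Mars, Tars and Yars began between 45 bases and 7 bases before the TSS, and the match shown for Aars began 116 bases before it. For Nars, whose match lies within the first bases after the TSS, no sequence is given. A match is a run of letters and not a measured binding site.

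The core of the NRF1 motif (GCATGCG, either strand), the recognition sequence of a factor known for nuclear genes of mitochondrial function, had the opposite distribution. It was found in 5 of 13 mitochondrial members, Nars2, Rars2, Vars2, Wars2 and Yars2, but in 1 of 20 cytosolic ones, Wars, and in 4.16% of all genes. The palindromic CGCATGCG matches on both strands.
Nars2, chr7:104099981-104100010, plus strand: ggacacaatcaCGCATGCtcagactccacc
Rars2, chr4:34562144-34562173, plus strand: cggccccgtgtGCATGCGcactccacactt
Vars2, chr17:35804566-35804595, minus strand: agagtcttttaCGCATGCGcctgcgtgtcc
Vars2, chr17:35804540-35804569, minus strand: gtccccgcccaCGCATGCGcgcgcacctcg
Wars2, chr3:98944939-98944968, plus strand: cagaggacaggCGCATGCGtagtaagcaca
Yars2, chr16:16302990-16303019, plus strand: gctacgcccgaGCATGCGtagagagacacc
Of the other motifs, all but TATAAA were found in both classes. The ETS motif (CCGGAAG) was in 11 cytosolic and 4 mitochondrial members (11.6% of all genes), CCAAT in 7 and 5 (37.2%), the YY1 core (ATGGCGG) in 3 and 4 (6.05%), the E-box (CACGTG) in 4 and 1 (7.76%), and TATAAA in Aars2 alone (13.3%). All were searched on both strands.

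The median Tip60 level was higher at the promoters of the cytosolic synthetase genes than at those of the mitochondrial enzymes. Upon GFP KD the median member lay at the 92.9th percentile of all 36733 TSSs. The median was the 98.8th percentile for cytosolic and the 89.7th for mitochondrial members. In rpm the medians were 1.72 and 1.02, against 0.558 over all TSSs. The classes had the same order in untagged cells, at the 86.4th percentile (0.794 rpm) for cytosolic and the 64.7th (0.599 rpm) for mitochondrial members. Part of the difference in rank is therefore also found without the tag. Among the 1% of TSSs with the most Tip60 were 11 members, 9 cytosolic and 2 mitochondrial. Of the 8 members with the C/EBP-ATF element, 7 were in this top 1%, and in untagged cells their median was the 88.4th percentile. The 12 cytosolic genes without the element had a Tip60 median of 1.07 rpm, at the 91.5th percentile, close to that of the mitochondrial genes. This grouping was made after values had been seen and is a description.

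The highest Tip60 level was at Yars, the tyrosyl-tRNA synthetase gene, with 5.02 (4.11 to 6.06) rpm, followed by Iars (isoleucyl) with 4.45 (3.6 to 5.44) rpm and Tars (threonyl) with 4.09 (3.27 to 5.03) rpm. These 3 intervals overlapped one another, so their order is not resolved by the reads. Lars (leucyl), which has no C/EBP-ATF element in the searched window, came next with 3.19 (2.47 to 4.04) rpm, and Mars (methionyl) had 2.69 (2.02 to 3.46) rpm. In the untagged cells the same 5 promoters had 0.804, 1.06, 1.06, 0.844 and 1.01 rpm, and no interval there reached the Tip60 level. At the other end were Fars2 with 0.499 (0.257 to 0.922) rpm, Iars2 with 0.543 (0.291 to 0.982) rpm and Rars with 0.568 (0.291 to 0.982) rpm, all close to the median TSS.

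Over the untagged control, Tip60 was higher at 30 of the 33 members. A call was made where 2 samples differed by at least 1.5-fold with at least 10 reads in both together, and 23 members were called higher and 0 lower, against 29.8% and 15.2% of all TSSs. The counting interval lay above 1 for 16 members, 12 cytosolic and 4 mitochondrial (Ears2, Tars2, Wars2 and Yars2), and below 1 for 0, against 8.44% and 2.21% of all TSSs. Summed over the members, Tip60 reads were 2.33 (2.1 to 2.58) times the untagged level, 2.59 (2.29 to 2.94) times for cytosolic and 1.8 (1.49 to 2.18) times for mitochondrial genes. For the 8 genes with the element the ratio was 3.57 (2.98 to 4.29). For the 12 cytosolic genes without it the ratio was 1.81 (1.52 to 2.17), close to that of the mitochondrial genes. The ratio at Yars was 6.24 (3.73 to 10.5) and that at Iars 4.18 (2.63 to 6.69). The highest ratio, 14.8 (5.47 to 85.4) at Yars2, the mitochondrial tyrosyl enzyme, rests on an untagged level of 0.15 rpm, or 3.48 reads, the lowest of any member.

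**Figure D1:**
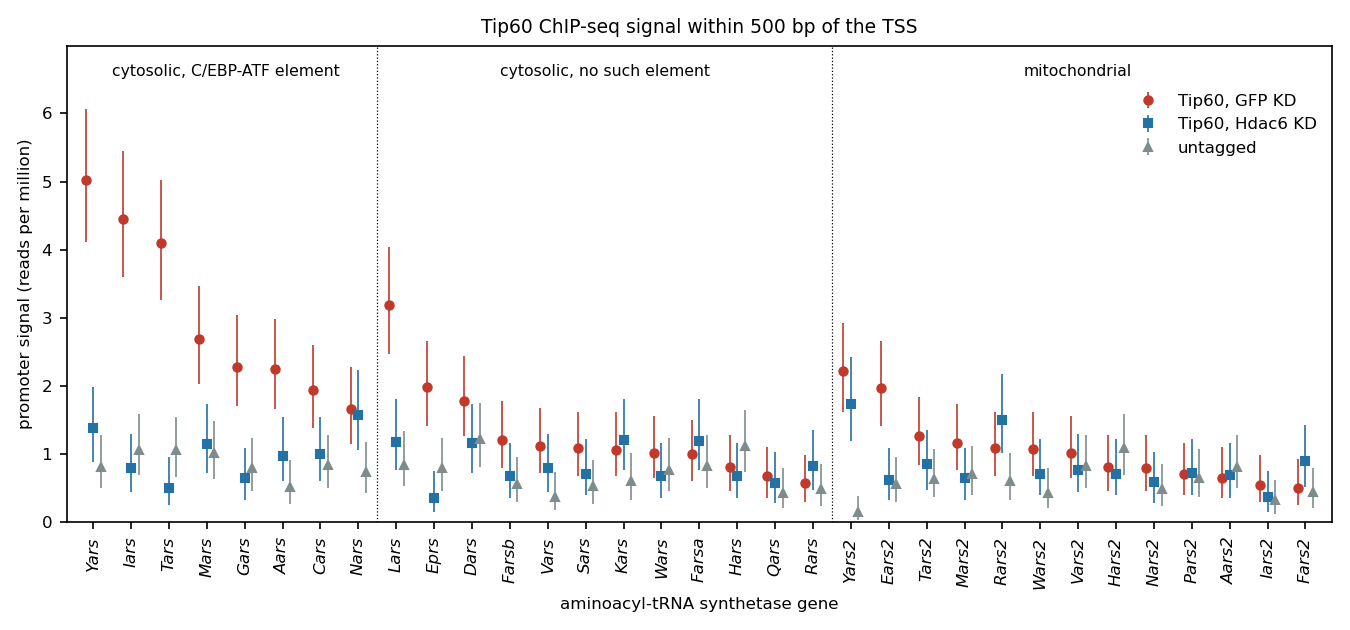
Tip60 level within 500 bp of the TSS (y axis, rpm) for each member (x axis), ordered within 3 sets by the level upon GFP KD. Circles are Tip60 upon GFP KD, squares Tip60 upon Hdac6 KD and triangles untagged cells, each from 1 sample with its 95% Poisson counting interval; Tars stood at 4.09 rpm upon GFP KD and 0.506 rpm upon Hdac6 KD.

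The members on which the following comparisons turn are given here in every sample. Tars had 4.09 rpm of Tip60 upon GFP KD, 0.506 rpm upon Hdac6 KD and 1.06 rpm in untagged cells, 2.14 rpm of p400 upon GFP KD and 0.612 rpm upon Hdac6 KD, and 1.34 rpm of Hdac6 upon GFP KD and 1.07 rpm upon Tip60 KD. It was higher in the control samples of Tip60 and p400 than in the other 5 samples, and its untagged level was itself at the 97.5th percentile of all TSSs. Yars had, in the same order, 5.02, 1.38 and 0.804 rpm for Tip60 and untagged cells, 3.98 and 0.874 rpm for p400, and 1.13 and 1.61 rpm for Hdac6. Its Tip60 and p400 levels were likewise highest in the control samples. Gars had 2.28, 0.646 and 0.795 rpm for Tip60 and untagged cells, 2.78 and 0.629 rpm for p400, and 2.84 and 2.04 rpm for Hdac6. Eprs had 1.98, 0.353 and 0.792 rpm, then 2.24 and 0.644 rpm, and 2.4 and 2.0 rpm. In both genes Tip60 and Hdac6 were above the untagged level in the control cells, and Hdac6 was so upon Tip60 KD as well. Nars had 1.66, 1.57 and 0.732 rpm, then 1.7 and 0.823 rpm, and 1.21 and 0.905 rpm. Yars2 had 2.22, 1.73 and 0.15 rpm, then 2.38 and 1.04 rpm, and 1.64 and 1.75 rpm. At these last genes the Tip60 intervals of the knockdowns overlapped, both levels were above the untagged one, and p400 was lower upon Hdac6 KD.

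Upon Hdac6 KD, the summed Tip60 signal was lower at the cytosolic synthetase promoters, and the summed fall was smaller at the mitochondrial ones. The control library that ranked the members by Tip60 is also the denominator of these ratios. A level that is high there by counting alone gives a low ratio, so rank and fall are not independent. Of the 33 members 15 were called lower and 1 higher, against 34.6% and 15.1% of all TSSs. Among cytosolic genes 12 of 20 were lower, and among mitochondrial genes 3 of 13. The counting interval lay below 1 for 10 members, 9 cytosolic and 1 mitochondrial, against 9.11% of all TSSs. Summed reads fell to 0.538 (0.485 to 0.596) of the control level over all members, to 0.453 (0.398 to 0.514) over the cytosolic genes and to 0.784 (0.651 to 0.937) over the mitochondrial genes. The median member stood at 0.677 of its control level and the median TSS at 0.837.

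Most of this loss was at the genes with the C/EBP-ATF element. There, 7 of 8 were called lower, Nars being the exception, and summed reads stood at 0.329 (0.274 to 0.396) of the control level, against 5 of 12 and 0.648 (0.538 to 0.774) for cytosolic genes without it. Of all TSSs 34.6% were called lower, and the 5 of 12 is near that share. Tars had the largest fall, with a ratio of 0.124 (0.0593 to 0.247) between Hdac6 KD and GFP KD. Upon Hdac6 KD its level, 0.506 (0.25 to 0.96) rpm, was below that of untagged cells, 1.06 (0.664 to 1.54) rpm, with overlapping intervals. Iars, at 4.45 and 0.80 rpm, had a ratio of 0.18 (0.0947 to 0.305), and its level upon Hdac6 KD was also below that of untagged cells, 1.06 rpm, with overlapping intervals. Yars had a ratio of 0.275 (0.169 to 0.419) and kept 1.38 (0.886 to 1.99) rpm, more than the 0.804 (0.494 to 1.28) rpm of untagged cells but within overlapping intervals. Gars (glycyl), with 2.28 and 0.646 rpm, had a ratio of 0.283 (0.132 to 0.52). The other 3 of the 7, Mars, Aars (alanyl) and Cars (cysteinyl), had ratios of 0.425, 0.432 and 0.515, with intervals below 1. Nars (asparaginyl) differed from these. Its intervals of 1.14 to 2.28 rpm upon GFP KD and 1.06 to 2.24 rpm upon Hdac6 KD overlapped almost fully, and the ratio was 0.947 (0.566 to 1.6).

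The promoters of Tars and Gars, with the element, and of Eprs, without it, are given here because all 3 lost most of their Tip60 signal. Each run covers the 100 bases before and the first 20 bases from the TSS, 5′ to 3′ on the strand of the gene in mm9, with matches to the searched motifs in capitals (the C/EBP-ATF element in Tars and Gars and CCAAT, read from the opposite strand as ATTGG, in Tars).
Tars, chr15:11329394-11329513, minus strand: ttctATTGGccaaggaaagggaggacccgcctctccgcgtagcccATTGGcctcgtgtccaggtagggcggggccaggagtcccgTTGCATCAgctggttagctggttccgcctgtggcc
Gars, chr6:54987895-54988014, plus strand: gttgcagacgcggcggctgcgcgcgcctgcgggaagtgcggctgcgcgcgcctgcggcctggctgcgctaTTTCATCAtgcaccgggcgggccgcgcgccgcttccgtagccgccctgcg
Eprs, chr1:187186874-187186993, plus strand: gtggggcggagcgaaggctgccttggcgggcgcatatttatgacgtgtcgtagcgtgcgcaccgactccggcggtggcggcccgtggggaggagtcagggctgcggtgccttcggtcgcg
Eprs had no match to any of the 7 motifs. Its Tip60 ratio of 0.178 (0.0704 to 0.417) was next to that of Tars among the falls of all members. Lars, the other cytosolic gene without the element whose interval lay below 1, had 3.19 rpm upon GFP KD and 1.18 rpm upon Hdac6 KD, a ratio of 0.369 (0.224 to 0.612). Falls with an interval below 1 were thus also found at promoters without the element.

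Ears2, the mitochondrial glutamyl enzyme, was the 1 mitochondrial gene with an interval below 1, at 1.98 rpm upon GFP KD, 0.621 rpm upon Hdac6 KD and 0.567 rpm in untagged cells, a ratio of 0.315 (0.152 to 0.616). Its TSS lies 135 bp from the divergent TSS of Ubfd1, so the window covers both promoters. At Yars2 the interval of the ratio, 0.78 (0.485 to 1.25), contained 1, and the level upon Hdac6 KD remained far above that of untagged cells. The members not described singly, among them Qars (glutaminyl), Vars, Wars, Farsa and Farsb, Dars (aspartyl), Sars, Tars2, Aars2, Pars2 and Vars2, had Tip60 ratios between 0.565 at Farsb and 1.18 at Farsa, all with intervals that contained 1. The 3 largest rises, at Fars2, Rars and Rars2, had ratios of 1.81 (0.76 to 4.07), 1.45 (0.659 to 3.44) and 1.37 (0.784 to 2.54). Each interval contained 1 before the GC correction described below.

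The 8 cytosolic genes whose enzymes are housed in the multisynthetase complex (Dars, Eprs, Iars, Kars, Lars, Mars, Qars and Rars), a set chosen after values had been seen, had a summed change close to that of the other cytosolic genes. Tip60 was called lower at 5 of these 8 and 7 of the other 12, against 34.6% of all TSSs. Summed reads stood at 0.442 (0.361 to 0.54) and 0.46 (0.389 to 0.542) of the control level. Within the complex the genes differed widely, from Eprs to Rars at 1.45 and Kars at 1.14.

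The size of the change depended on base composition. Between 1500 and 2000 bp from TSSs, the ratio of the Hdac6 KD library to the control library of Tip60 was 1.26 in windows of 25 to 27.5% GC and 0.701 in windows of 62.5 to 65% GC. When each promoter was compared with flanking windows of the same GC content, the summed Tip60 signal of the members fell by 34.2%, that of the cytosolic genes fell by 45.8%, and that of the 8 genes with the element fell by 61%, with 7 of these 8 at least 1.5-fold lower. Of these 7, Cars had a corrected ratio of 0.645 (0.354 to 1.14), an interval that contained 1, and the others had intervals below 1. The summed signal of the mitochondrial genes fell by 0.533% only. After this correction 11 of the 33 members were at least 1.5-fold lower and 3 higher, against 24.7% and 22.1% of all TSSs. The 3 higher were Fars2, Rars and Rars2. At Fars2 the corrected ratio was 2.58 (1.08 to 5.8), an interval above 1, while those of Rars and Rars2 contained 1. Without the 5 members highest in Tip60, the summed signal of the other 28 fell by 30.3%.

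After Hdac6 KD the Tip60 signal that was left exceeded the untagged level by 25.2% in sum, and 10 members were called higher and 4 lower, against 22% and 26.8% of all TSSs. The interval lay above 1 for 3 members and below 1 for 0, against 5.23% and 5.32% of all TSSs. These were Nars with 2.14 (1.14 to 4.12), Rars2 with 2.5 (1.28 to 5.12) and Yars2 with 11.5 (4.17 to 67.7). This comparison and that of the control share the untagged sample. Against flanking windows of equal GC content the summed excess was 49.7%. Then 15 members were at least 1.5-fold higher and 2 lower, against 30.4% and 19.9% of all TSSs. The intervals of Aars, Kars, Vars, Yars and Fars2 also lay above 1 after this correction. The share of all TSSs with such a corrected interval was not computed.

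p400, measured with a different antibody in cells for which the labels name no tag, had a similar order of levels and fell at more of the members. Upon GFP KD the median member lay at the 94.7th percentile of the 22704 TSSs of the p400 files, with 10 members in the top 1%, 8 cytosolic and 2 mitochondrial. The highest were Yars with 3.98 (3.25 to 4.85) rpm, Iars with 3.27 (2.61 to 4.07) rpm, Gars with 2.78 (2.16 to 3.49) rpm, Lars with 2.62 (2.02 to 3.32) rpm and Aars with 2.56 (1.98 to 3.27) rpm, of which neighbours in the order had overlapping intervals. The lowest were Iars2 with 0.47 (0.245 to 0.828) rpm, Nars2 with 0.983 (0.639 to 1.46) rpm and Kars with 1.0 (0.639 to 1.46) rpm. Across the 33 genes the log2 levels of Tip60 and p400 had a Pearson correlation of 0.809. Both come from the same windows, whose base composition and mappability they share. No IgG or input sample was analysed for p400, so its background is not known.

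Upon Hdac6 KD p400 was called lower at 28 of 33 members and higher at 1, against 44.8% and 8.23% of all TSSs. The interval lay below 1 for 22 members, 14 of 20 cytosolic and 8 of 13 mitochondrial, against 25.4% of all TSSs. Summed reads stood at 0.442 (0.405 to 0.482) of the control level, at 0.40 (0.358 to 0.445) for cytosolic and 0.53 (0.459 to 0.614) for mitochondrial genes, and the median TSS of the files stood at 0.711. All 8 genes with the C/EBP-ATF element were lower, Nars included, with summed reads at 0.324 (0.274 to 0.381), and 10 of the 12 cytosolic genes without it were lower, with 0.479 (0.413 to 0.555). Correction for GC content left these values nearly as they were, with a summed signal that fell by 55.9% over all members and fell by 43.8% over the mitochondrial ones.

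The largest falls of p400 were at Yars, Gars and Wars2. Yars had 3.98 (3.25 to 4.85) rpm upon GFP KD and 0.874 (0.567 to 1.25) rpm upon Hdac6 KD, a ratio of 0.22 (0.136 to 0.332), and Gars had 2.78 and 0.629 rpm, a ratio of 0.226 (0.133 to 0.383). Wars2, the mitochondrial tryptophanyl enzyme, had 1.84 and 0.51 rpm and a ratio of 0.277 (0.145 to 0.493), although its Tip60 ratio, 0.666 (0.323 to 1.37), had an interval that contained 1. Tars, Eprs, Iars and Lars followed, with ratios of 0.286, 0.288, 0.291 and 0.297, and Nars, with a Tip60 ratio of 0.947, had a p400 ratio of 0.484 (0.288 to 0.812). Yars2 likewise had lower p400, with 2.38 and 1.04 rpm and a ratio of 0.437 (0.281 to 0.69), where Tip60 had 0.78 (0.485 to 1.25). The smallest falls were at Nars2 and Sars, with 0.805 (0.444 to 1.46) and 0.79 (0.456 to 1.33). Upon Hdac6 KD the levels of all members lay in a range from 0.484 to 1.14 rpm, where upon GFP KD they had ranged from 0.47 to 3.98 rpm. The control library is here too both the source of the ranking and the denominator of the ratios.

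**Figure D2:**
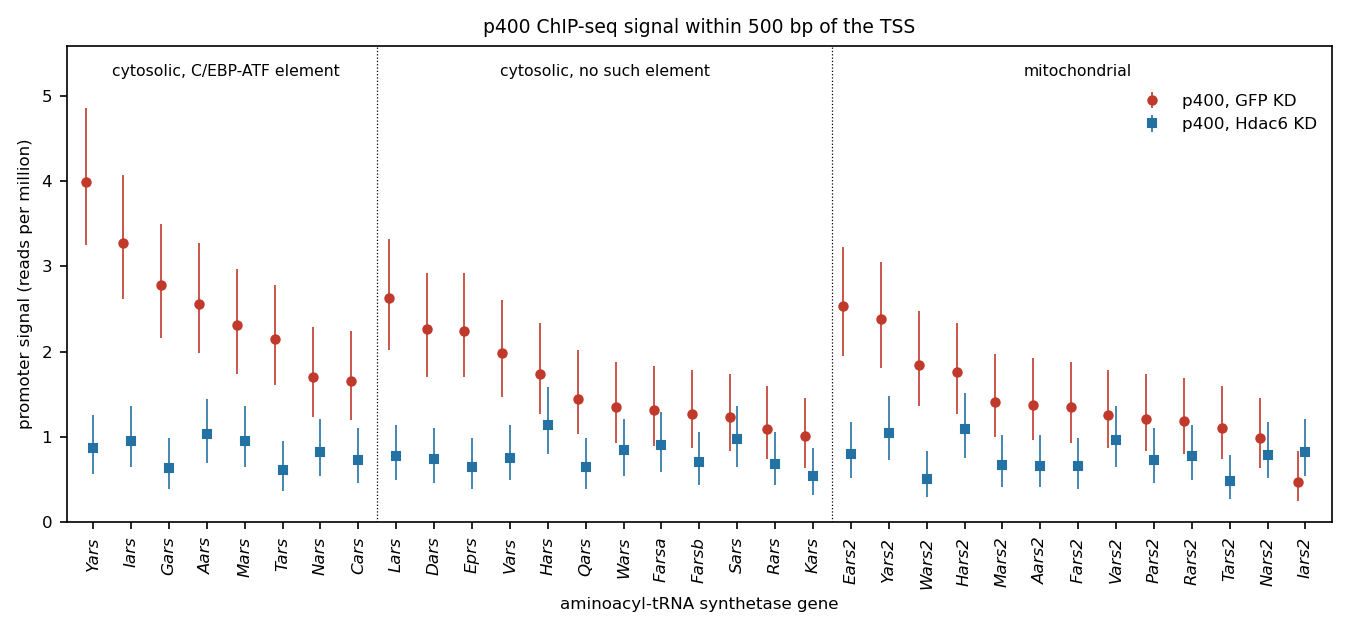
p400 level within 500 bp of the TSS (y axis, rpm) for each member (x axis), ordered within the 3 sets by the level upon GFP KD. Circles are GFP KD and squares Hdac6 KD, each from 1 sample with its 95% Poisson counting interval; upon Hdac6 KD the members lie between 0.484 and 1.14 rpm, and only Iars2 lies higher than upon GFP KD.

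Lower signal of both factors upon Hdac6 KD was called at 14 members, 11 cytosolic and 3 mitochondrial (Ears2, Mars2 and Wars2), against 17.1% of the TSSs with enough reads in both comparisons. It included 7 of the 8 genes with the element and, of the other cytosolic genes, Dars, Eprs, Farsb and Lars. Across the 33 genes the log2 changes of Tip60 and p400 had a Pearson correlation of 0.612 and a Spearman correlation of 0.681. These comparisons share no sample, but the genes share their windows between them. Genes such as Fars2, Rars, Rars2 and Kars had lower p400 (ratios of 0.485, 0.631, 0.656 and 0.535) but Tip60 ratios above 1. Before GC correction, each of these Tip60 intervals contained 1, and so did the p400 intervals of Rars, Rars2 and Kars.

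**Figure D3:**
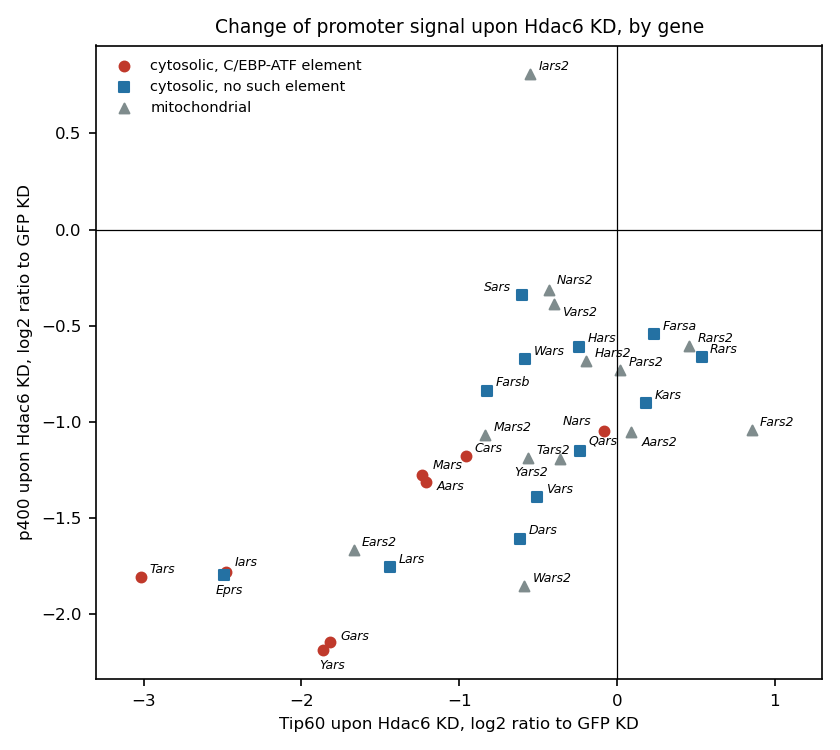
Log2 ratio of the promoter signal upon Hdac6 KD to that upon GFP KD for Tip60 (x axis) and p400 (y axis), 1 point per member, with the set given by symbol and color. Of the 14 members called lower for both factors, Tars, Eprs, Iars, Yars and Gars lie farthest to the lower left, and Nars is the member with the element whose Tip60 ratio (0.947) is closest to 1.

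The lost signal was centred close to the TSS. In the mean profile of the 8 genes with the element, Tip60 upon GFP KD reached 1.49 ppm (reads that cover a position, scaled in the same way) at 60 bp from the TSS over a flank of 0.224 ppm, and upon Hdac6 KD 0.441 ppm. p400 reached 1.32 ppm at 0 bp, and upon Hdac6 KD 0.288 ppm. The mitochondrial genes had lower maxima, of 0.368 ppm for Tip60 and 0.563 ppm for p400 upon GFP KD.

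**Figure D4:**
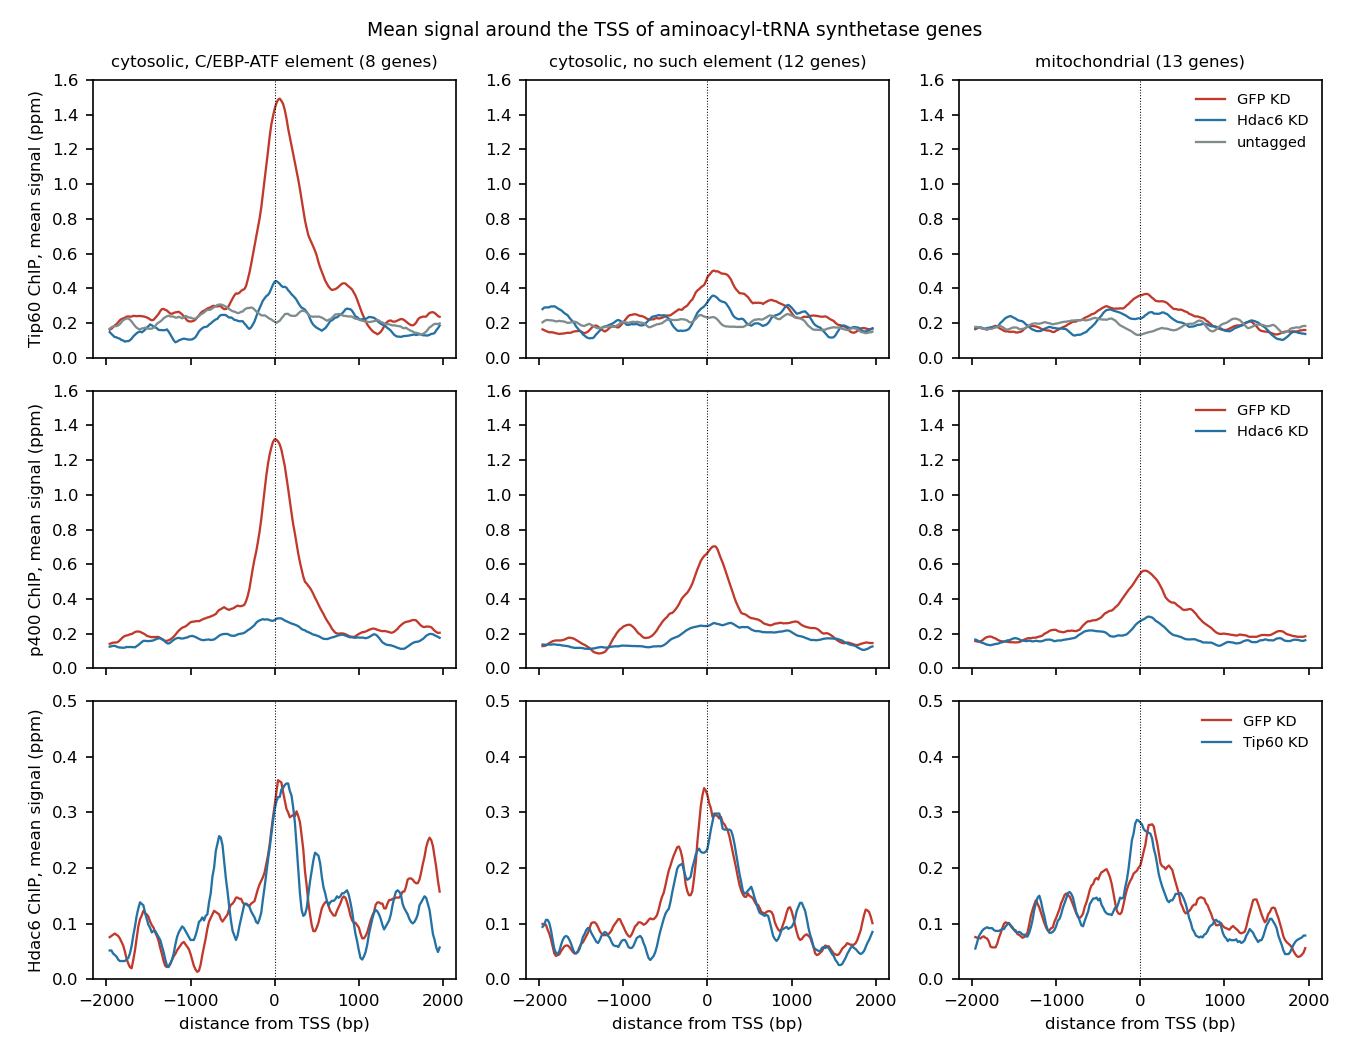
Mean ChIP signal (y axis, ppm) against the distance from the TSS (x axis, bp) for Tip60, p400 and Hdac6 (rows of panels) at the cytosolic genes with the C/EBP-ATF element, the other cytosolic genes and the mitochondrial genes (columns), control and knockdown drawn as separate lines with 1 sample each. The maximum of Tip60 at the genes with the element drops from 1.49 to 0.441 ppm; the Hdac6 panels have a smaller y range and come from shorter read spans.

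Tip60 at the cytosolic genes lay at the TSS and just downstream rather than farther upstream. Its reads between 100 bp upstream and 300 bp downstream exceeded those between 600 and 200 bp upstream by 144% (107% to 190.1%) for cytosolic members, against 3.16% over all TSSs. Each of the 8 genes with the element had more reads in the former window. That window includes the TSS itself, and over the whole 1000 bp on either side of the TSS the downstream excess of all members was 31.3%, against 101% in the windows above. For mitochondrial genes the excess was 23.9%, with an interval from -4.42% to 61.4%. Upon Hdac6 KD the downstream signal of the members fell by 51% and the upstream signal fell by 29.2%, where over all TSSs the downstream signal fell by 18% and the upstream signal fell by 10.8%. For p400 the downstream signal of the members fell by 61.8% and the upstream signal fell by 45.3%, where over all TSSs they fell by 33.7% and fell by 29.3%.

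Hdac6 levels had another order of members than Tip60 levels. Upon GFP KD the median member lay at the 77.9th percentile of all TSSs for Hdac6, with 1 member, Gars, in the top 1%. In the untagged sample the members lay at a similar rank, the 77.7th percentile. The highest Hdac6 levels were 2.84 (1.96 to 4.0) rpm at Gars, 2.4 (1.61 to 3.49) rpm at Eprs, 2.02 (1.26 to 2.98) rpm at Sars (seryl), 1.99 (1.26 to 2.98) rpm at Vars (valyl) and 1.91 (1.19 to 2.87) rpm at Nars2 (mitochondrial asparaginyl). Lars had 0.791 (0.355 to 1.47) rpm, the lowest after Iars2 (0.64 rpm) and Tars2 (0.709 rpm), although it was among the highest for Tip60. Iars, Tars, Lars and Mars, which had the most Tip60 after Yars, had Hdac6 ratios to the untagged level of 1.1 (0.538 to 2.24), 1.26 (0.609 to 2.48), 0.937 (0.36 to 2.07) and 0.977 (0.42 to 2.04), so Hdac6 was not detectable over the untagged level there. Among the members with the largest falls of Tip60 it was higher at Gars, with 3.57 (2.0 to 6.91), and at Eprs, with 3.02 (1.66 to 5.97). The promoters of Gars and Eprs are richer in GC than those of Iars, Tars, Lars and Mars, and against flanking windows of equal GC content their ratios were 1.35 (0.757 to 2.61) and 1.01 (0.552 to 1.98), so that both intervals contained 1. Across the members the log2 levels of Tip60 and Hdac6 had a Pearson correlation of -0.0636.

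Over the untagged sample, 23 members were called higher for Hdac6 and 0 lower, against 59.6% and 10.2% of all TSSs. The interval lay above 1 for 14 and below 1 for 0, against 33.7% and 1.17% of all TSSs. The summed ratio was 2.07 (1.83 to 2.33). The median member stood at 2.01 times the untagged level and the median TSS at 1.77 times. With all samples scaled to equal totals over the TSSs the summed excess was 50.4%, and without the correction for the shorter read span of the Hdac6 library it was 2.91%. The Hdac6 library was itself richer in GC-rich windows than the untagged library, and after comparison with flanking windows of equal GC content the summed Hdac6 signal differed from the untagged one by -4.31%. Hdac6 binding at the members and the base composition of their promoters cannot be told apart in this comparison.

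Upon Tip60 KD the Hdac6 signal of the members was close to its control level. As Hdac6 binding at the members was not told apart from base composition above, this comparison cannot show whether bound Hdac6 was kept. Summed reads stood at 0.94 (0.826 to 1.07) of the control, at 0.932 (0.79 to 1.09) for cytosolic and at 0.954 (0.766 to 1.18) for mitochondrial genes. The counting interval for all members runs from a fall of 17.4% to a rise of 6.97%, and it does not cover the unknown spread between cultures. Calls were made for 5 members lower and 2 higher, against 16.7% and 17.8% of all TSSs, and no member had an interval on either side of 1, where 1.22% and 1.89% of all TSSs did. The lowest ratios were 0.439 (0.164 to 1.15) at Pars2 (mitochondrial prolyl), 0.592 (0.241 to 1.26) at Wars (tryptophanyl) and 0.615 (0.251 to 1.33) at Farsa (a phenylalanyl subunit). The highest were 1.84 (0.913 to 3.82) at Mars2 (mitochondrial methionyl), 1.58 (0.697 to 3.49) at Rars (arginyl) and 1.42 (0.643 to 3.31) at Yars. At the depth of these libraries, with a median of 12 reads per member upon Tip60 KD, a change of a single gene that lies within its interval was not detectable.

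**Figure D5:**
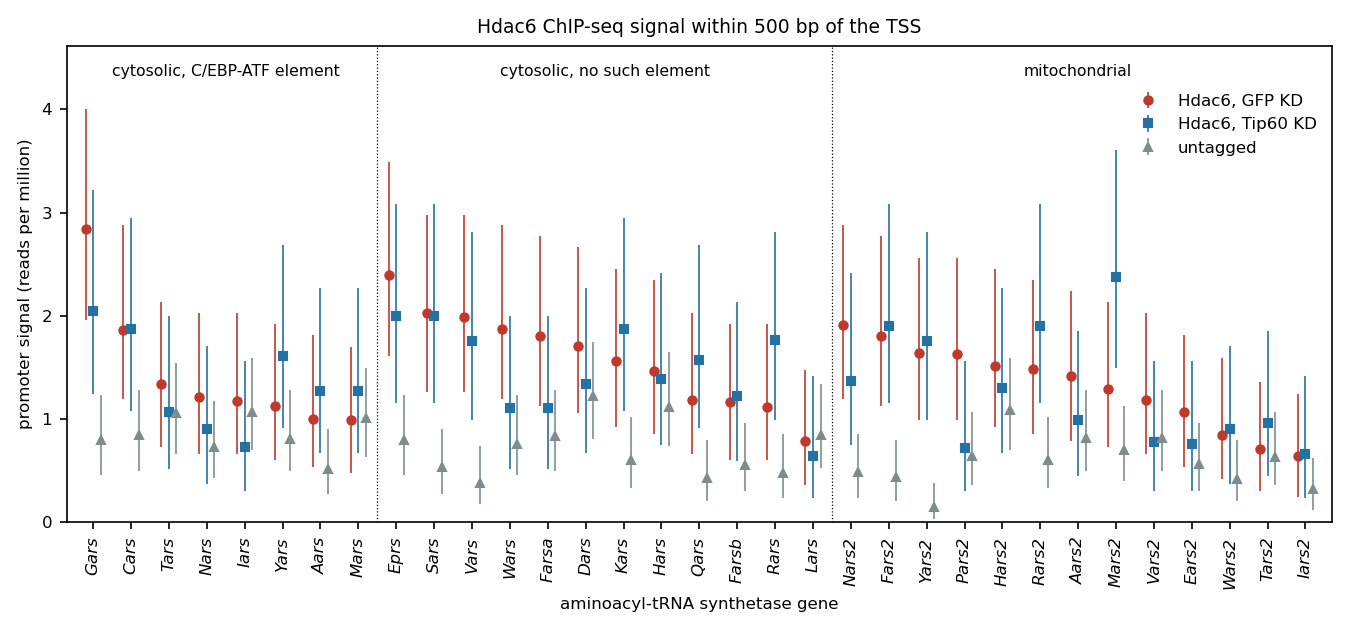
Hdac6 level within 500 bp of the TSS (y axis, rpm) for each member (x axis), ordered within the 3 sets by the level upon GFP KD. Circles are GFP KD, squares the library titled Tip60 KD and triangles untagged cells, each from 1 sample with its 95% Poisson counting interval; Gars is highest upon GFP KD at 2.84 rpm, and the intervals of circle and square overlap at every member.

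Gars and Kars, the genes that serve both compartments, differed in Tip60 and p400. Gars was among the top 1% of TSSs for Tip60, p400 and Hdac6 and was called lower for Tip60 and p400 upon Hdac6 KD. Kars had 1.06 (0.683 to 1.62) rpm of Tip60 upon GFP KD and 1.21 (0.761 to 1.8) rpm upon Hdac6 KD, over 0.601 rpm in untagged cells, and its p400 ratio was 0.535 (0.278 to 1.06). Kars shares its window with Terf2ip, whose divergent TSS lies 137 bp away.

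Hars and Hars2 are transcribed in opposite directions from TSSs 160 bp apart, so nearly the same reads were counted for both. Tip60 at this pair was no higher than the untagged signal, with ratios of 0.727 (0.361 to 1.36) for Hars and 0.748 (0.374 to 1.42) for Hars2, while p400 had 1.74 and 1.76 rpm upon GFP KD and 1.14 and 1.09 rpm upon Hdac6 KD. Besides Kars and Ears2, windows were also shared by Yars with S100pbp, Fars2 with Lyrm4 and Rars2 with Orc3l, and by Vars, Wars and Nars2 with TSSs without a RefSeq identifier. The windows of these 10 members therefore also hold reads of the other TSS. At Yars, whose neighbours lie 325 and 469 bp upstream, the maximum of Tip60 was at 40 bp and that of p400 at -20 bp from the Yars TSS.

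Iars2, the mitochondrial isoleucyl enzyme, had a pair of TSS entries. The entry that the selection took lies at chr1:187146981, 6294 bp inside the gene from its annotated start on the minus strand, and gave the lowest p400 level and the only rise of p400 upon Hdac6 KD, with 0.47 and 0.823 rpm and a ratio of 1.75 (0.851 to 3.8). The other entry, at chr1:187153280 and 5 bp from the annotated start, had 1.18 rpm of Tip60 and 0.774 rpm of p400 upon GFP KD. There the ratios upon Hdac6 KD were 0.845 (0.441 to 1.6) for Tip60 and 0.785 (0.387 to 1.51) for p400. The p400 files do not hold coordinates, and which of their entries belongs to which start was taken from the order of the files.

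Across the genome, genes with the C/EBP-ATF element were not called lower more often than genes without it. Among the 591 other genes with the element, 29.6% of those with enough reads were called lower for Tip60 upon Hdac6 KD, against 34.4% of genes without it. For p400 the shares were 32.5% and 45.7%. These genes also had less Tip60 upon GFP KD than genes without the element, with medians of 0.489 and 0.59 rpm. The median of the 8 synthetase genes was 2.49 rpm.

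The mitochondrial genes with the NRF1 core differed among themselves. Of its 5 mitochondrial carriers, Yars2 and Rars2 were called lower for p400 only, Wars2 was called lower for both factors, and Nars2 and Vars2 were called for neither. Of the mitochondrial genes without it, Ears2 and Mars2 were called lower for both factors. Over all TSSs 34.6% were called lower for Tip60, 44.8% for p400 and 17.1% for both. For Mars2 the Tip60 ratio was 0.561 (0.245 to 1.1) and the p400 ratio 0.477 (0.261 to 0.828).

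Other genes that act on tRNA charging were called lower for Tip60 upon Hdac6 KD at 3 of 16, against 34.6% of all TSSs, 12 of 20 cytosolic and 3 of 13 mitochondrial synthetase genes. These differences were not tested. Of 18 listed symbols 16 were found, comprising the complex scaffolds Aimp1, Aimp2 and Eef1e1, further synthetases and synthetase-like genes, the mitochondrial glutaminyl-tRNA amidotransferase and enzymes that modify or complete tRNAs, and none of them had the C/EBP-ATF element. None of the 16 was called higher for Tip60 upon Hdac6 KD, and the median ratio was 1.04. The 3 called lower were Gatc, an amidotransferase subunit, at 0.202 (0.0813 to 0.493), Eef1e1 at 0.551 (0.313 to 0.962) and Pstk, the kinase of the selenocysteine pathway, at 0.577 (0.232 to 1.4), the last with an interval that contained 1. p400 was called lower at 8 of the 16 and higher at 0, a share near the 44.8% lower of all TSSs. Among the 8 were Aimp2 at 0.345 (0.193 to 0.591) and Aarsd1 at 0.314 (0.152 to 0.578).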

How the data were processed

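ChIP-seq was performed by the authors in 7 samples of E14 cells, 1 per condition. They mapped single-end reads to mm9 with Bowtie after CASAVA 1.8.2 (per the submitters' processing notes), allowing 1 mismatch and placing a multiply mapped read at 1 random location, and extended the reads. The deposited files hold the signal, coverage in ppm every 20 bp from -2000 to 2000 bp around each TSS (36733 rows for Flag, 22704 for p400). Values were whole multiples of a step, the worth of 1 read. The summed coverage from -500 to 500 bp was divided by the step and by the read span found in the files to give reads, and then by the reads used for scaling to give rpm. Ratios carry exact conditional binomial intervals, levels exact Poisson intervals, both at 95% and for counting error only, since reads were not identified as separate molecules. A gene at 0 would be set to 3 reads. No test across samples was possible with 1 sample per condition. The computation, in Python 3.11.15 with numpy 2.4.6, scipy 1.17.1 and matplotlib 3.10.9, was tested on simulated data.

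The members and lists were chosen with earlier results of these data known. Named members are the 5 highest and 3 lowest in each control sample, the 3 largest falls and rises in each knockdown comparison (at least 20 reads in both samples together), pairs that share a window, and Gars, Kars and Eprs. Cars, Dars, Nars, Ears2, Yars2 and the lists of all members that passed or missed a call were named outside this rule, after their values were seen. The grouping by the C/EBP-ATF element and the set of the multisynthetase complex were also made after values were seen. Each gene was taken by its first TSS with a RefSeq identifier. The motif windows and gene starts came from NCBIM37 and its GENCODE annotation. Alternatives covered the window, scaling, spans, flank subtraction, GC content, fold and leaving members out. No column of another series was used. The values of 1 listed gene and some matched sequences are not reported here.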

Additional observations from a re-analysis of the deposited data

How the results depend on the processing

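No paired analysis was possible because each condition had 1 sample, which leaves no pairs of replicates to compare and no replicate to leave out. Of the values recomputed under alternatives, 96 kept their direction and size, 42 moved and 1 reversed. The window changed the size of the following values and not their direction. For the summed members, Tip60 over untagged was 193% higher from -250 to 250 bp and 76.2% from -1000 to 1000 bp, Hdac6 over untagged 148% and 56.6%, and Tip60 over untagged after Hdac6 KD 46.6% and 7.68%. p400 upon Hdac6 KD changed by -62.0% and -48.0%, and Tip60 by -38.9% in the wider window. With the flank signal subtracted these values were 511%, 359.7%, 118%, -78.2% and -64.4%. With each sample scaled to equal totals, Hdac6 over untagged was 50.4% and p400 upon Hdac6 KD -46.6%. With spans of reads as deposited, Hdac6 over untagged was 2.91%. GC correction reversed Hdac6 over untagged to -4.31%, and gave -34.2% for Tip60 upon Hdac6 KD and 49.7% for Tip60 over untagged after Hdac6 KD.

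Alternatives added after the data were seen left out 5 members at a time. Without those highest in Tip60, Tip60 over untagged was 87.4%, Tip60 upon Hdac6 KD -30.3% and p400 upon Hdac6 KD -51.0%. Without those highest in p400, these were 91.8%, -34.5% and -50.2%. At a fold of 2, 9 members were lower and 0 higher for Tip60 upon Hdac6 KD (19% and 6.72% of all TSSs), 20 lower and 0 higher for p400 (21.9% and 2.74%), 1 lower and 0 higher for Hdac6 upon Tip60 KD (6.43% and 6.01%), and 2 lower and 6 higher for Tip60 over untagged after Hdac6 KD (14.5% and 10.2%). The excess of the downstream over the upstream side was 31.3% for Tip60, 16.0% for Hdac6 and 11.3% for p400 over 1000 bp on either side, 196%, 138% and 169% with the flank subtracted, and 120.4% for p400 in windows of 200 bp. The ratio of the cytosolic to the mitochondrial median within 500 bp was 1.68 for Tip60, 1.38 for p400 and 0.988 for Hdac6. In the untagged sample it was 1.33, close to that of p400. From -250 to 250 bp it was 2.05 for Tip60, 1.63 for p400 and 1.24 for untagged cells. Without members near another TSS it was 1.64 for p400 and 1.25 for untagged cells. Depth was a limit: with a median of 12.0 to 42.0 reads per member the counting intervals of single genes were wide, and with 1 sample per condition the spread between cultures is unknown.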
